A study of Mus musculus with 23 samples.

Results

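The mature microRNAs of the mouse gene Mir150, miR-150-5p and miR-150-3p, were followed across the 6 cell populations of a small RNA sequencing study of type 2 lymphocytes in the allergic lung. They were found by name, as mmu-miR-150-5p and mmu-miR-150-3p, and are 2 of the 1256 entries in the deposited tables. The study holds 23 libraries, spread over 4 count tables with at most 1 library of each population, and the replicate number of a library is the number of its table. The total count of a library lay between 84918 and 28371920 (median 832220).

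Lung ILC2, group 2 innate lymphoid cells, came from wild-type mice given no treatment and were sorted from lung as CD45+ Thy1+ lin- CD4- CD25+ ST2+ cells (n = 4). IL-33 ILC2 were sorted in the same way from wild-type mice after oropharyngeal IL-33, 500 ng over 3 days (n = 4). Cultured ILC2 had the same genotype, tissue and sort and were kept for 10 days with 10 ng/ml of IL-33, TSLP and IL-7 (n = 4). CD4 T cells came from spleen and lymph nodes of wild-type mice, sorted as CD4+ CD62Lhi CD44lo CD25- CD69- cells and left untreated (n = 4). OVA-lung Th2 were the CD45+ CD11c- CD11b- CD4+ CD3+ 4get+ cells of the lung in mice of the genotype Il4tm1LKy, which had received 50 µg of ovalbumin with alum by the intraperitoneal route and then 50 µg by the oropharyngeal route over 3 days (n = 3, none in the fourth table). Cultured Th2 were CD4+ cells of wild-type spleen and lymph nodes, taken with magnetic beads and kept for 5 days with anti-CD3, anti-CD28, IL-4 at 500 U/ml and anti-IFNg at 10 µg/ml (n = 4). ILC2 and T helper 2 (Th2) cells are the innate and adaptive sources of the type 2 cytokines. CD4 T cells and cultured Th2 differ from the ILC2 groups in tissue as well as lineage, and OVA-lung Th2, which share the tissue, differ in genotype, so these cannot be told apart from lineage in those comparisons. Since the labels do not say which libraries came from separate animals, the p-values reflect only how far these libraries spread, which may be technical.

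A microRNA is cut from a hairpin precursor, whose arms give the 5p and the 3p product, and the arm loaded into Argonaute guides the silencing of messenger RNAs that pair with its seed, bases 2 to 8. miR-150-5p is the usual guide arm of this hairpin. It is known for its abundance in mature resting lymphocytes, for its fall when T cells are activated and for silencing Myb, a transcription factor of lymphocyte development. miR-150-3p is the passenger arm, usually found at a lower level.

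In the GENCODE annotation of GRCm38, the assembly that mm10 names, Mir150 lies on the plus strand at chr7:45121757-45121821 and is 65 bases long. It overlaps 0 other annotated genes. The mature sequence of miR-150-3p is shown, 5′ to 3′ with the seed in capitals. Only this arm is shown, because the sequence reference used here held no entry for the other arm or for the hairpin. RefSeq places miR-150-3p at chr7:45121798-45121819 on the plus strand of GRCm38.p6.
miR-150-3p: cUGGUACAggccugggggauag
In that reference the seed UGGUACA belonged to 1 of 1738 mature mouse microRNAs, miR-150-3p itself. The other arm was not among them, and its seed was not searched for.

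miR-150-5p was highest in CD4 T cells. Its levels there were 5878, 113985, 76916 and 20342 CPM (the count divided by the library total, times 1000000) in libraries 1 to 4. It ranked 27th, 1st, 4th and 11th among the microRNAs of those libraries and took 5.43 ± 5.02% of their counts (SD, n = 4). OVA-lung Th2 had 1605, 42434 and 44254 CPM in libraries 1 to 3, with 2.94 ± 2.41% of the counts (SD, n = 3). Library 1 was the low library of both populations.

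The ILC2 sorted from lung held less. Lung ILC2 had 509.9, 4248, 2194 and 440.9 CPM, a mean of 1848 ± 1794 (SD, n = 4), and IL-33 ILC2 had 241.9, 7794, 1048 and 299.6 CPM, a mean of 2346 ± 3651 (SD, n = 4). In both populations the second library was the high one, and the ranges overlapped. The highest of these 8 libraries, at 7794 CPM, was above the lowest CD4 T cell library, but that library comes from another table. In every table that held them, CD4 T cells and OVA-lung Th2 were above both.

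By CPM the cultured populations were lowest, though cultured Th2 overlapped with both ILC2 groups sorted from lung. Cultured Th2 had 113.7, 996.4, 610.3 and 68.79 CPM in libraries 1 to 4, a mean of 447.3 ± 440.7 (SD, n = 4). Cultured ILC2 had 14.08, 489.4, 500.2 and 63.69 CPM, a mean of 266.8 ± 264 (SD, n = 4). Library 1 of cultured ILC2 rests on 13 counts, and its exact 95% interval reaches up to 24.1 CPM. This and the other intervals given here cover counting error only.

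miR-150-3p followed the same broad order at a lower level. CD4 T cells had 2328, 4365, 1533 and 9423 CPM, a mean of 4412 ± 3547 (SD, n = 4), and OVA-lung Th2 had 1311, 837.7 and 600.6 CPM, a mean of 916.3 ± 361.5 (SD, n = 3). These groups did not overlap with each other or with any ILC2 or cultured group. Lung ILC2 had 0, 176.3, 186.7 and 393.1 CPM, a mean of 189 ± 160.8, and IL-33 ILC2 had 17.84, 289.9, 188.8 and 142.4 CPM, a mean of 159.7 ± 112.9 (SD, n = 4 each). Cultured Th2 had 13.99, 96.49, 76.54 and 72.81 CPM, a mean of 64.96 ± 35.53, and cultured ILC2 had 0, 5.11, 5.62 and 12.02 CPM, a mean of 5.69 ± 4.92 (SD, n = 4 each). The last of these groups lay below all libraries of the other groups except lung ILC2 library 1. A count of 0 allows up to 21.9 CPM in that library and up to 3.25 CPM in cultured ILC2 library 1, by the limit of 3 counts.

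**Figure D1:**
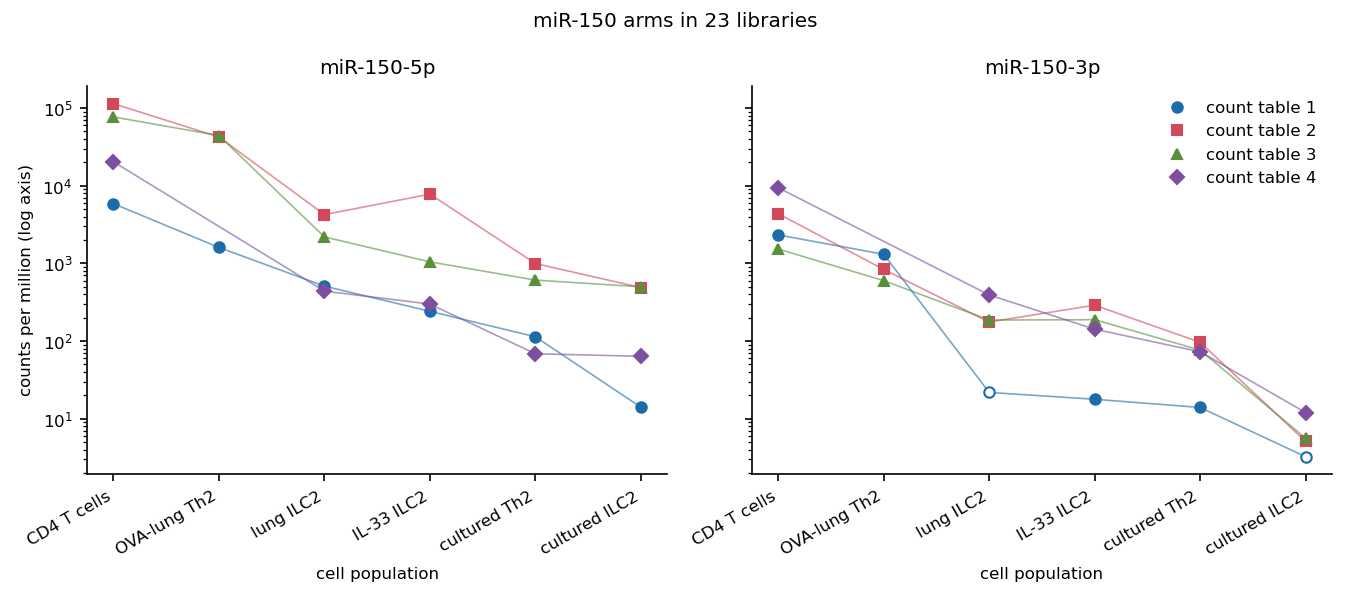
CPM of miR-150-5p (left) and miR-150-3p (right) on a log axis, with 1 point per library, populations on the x axis and lines joining the libraries of a count table. Open points are libraries with 0 counts, drawn at the limit of 3 counts. CD4 T cells were highest in each of the 4 tables for both arms. Cultured ILC2 were lowest in each for miR-150-5p and in 3 for miR-150-3p, where both open points of the first table stand for 0 counts and have no order.

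The order of the populations was nearly the same in every table. For miR-150-5p, CD4 T cells stood above OVA-lung Th2, both ILC2 sorted from lung, cultured Th2 and cultured ILC2 in that order in all 4 tables, where the fourth has no OVA-lung Th2. The exchange was between lung ILC2 and IL-33 ILC2 in the second table. For miR-150-3p, CD4 T cells were highest in all 4 tables and cultured ILC2 lowest in 3, while in the first table cultured ILC2 and lung ILC2 both had 0 counts. The exchanges were among lung ILC2, IL-33 ILC2 and cultured Th2. Tables differed in level: of the spread of log2 CPM over libraries, 79.0% lay between populations and 20.3% between tables for miR-150-5p, and 77.1% and 9.03% for miR-150-3p.

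Differences were tested with edgeR's quasi-likelihood test on the rounded counts of 384 microRNAs, all 6 populations in a single fit with TMM scaling and Benjamini-Hochberg adjustment, and a call is an adjusted p below 0.05. Both arms passed the filter on low counts. The same test with the replicate number as a block compares libraries within their count table, and its values are given where they change a call. TMM scales a library by the bulk of its microRNAs, so a fitted log2 change can differ from that of the CPM. The share of all tested microRNAs whose groups did not overlap is not given. A lack of overlap is therefore a description of the CPM throughout, and not support for a difference. Neighbours in the order of TMM-scaled levels did not separate without the block for either arm. Cultured Th2 were not separated from lung ILC2 or IL-33 ILC2 in either fit, for either arm. For miR-150-3p the TMM-scaled mean of cultured Th2 was above that of lung ILC2, the reverse of the CPM. With the block, edgeR separated OVA-lung Th2 from IL-33 ILC2 for both arms, cultured Th2 from cultured ILC2 for miR-150-5p, and lung ILC2 from cultured ILC2 for miR-150-3p, whereas CD4 T cells and OVA-lung Th2 were not separated for either arm.

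Between the untreated populations, both arms were far less abundant in lung ILC2 than CD4 T cells. miR-150-5p was lower by a log2 change of −5.76 ± 1.24 (SE, edgeR adjusted p = 0.00391). Within tables its CPM was 11.4-fold to 46.0-fold lower in lung ILC2, and the groups did not overlap. miR-150-3p was lower by −5.79 ± 1.60 (SE, edgeR adjusted p = 0.0447). Its CPM was lower in all 4 tables, by 24.7-fold, 7.97-fold and 23.9-fold in the second to the fourth and by at least 106-fold in the first, where lung ILC2 had 0 counts. Of all tested microRNAs, 1.56% were called in this comparison, 6 of 384, and 12.5% with the block. The call of miR-150-5p was kept without any single library, at −6.97 to −5.06. That of miR-150-3p was kept only without lung ILC2 library 4, at −6.63, and was lost without any other library, at −6.14 to −4.84. With the block miR-150-3p was called in all 8 such fits, at −6.51 to −5.55, and on all libraries at −6.07 ± 1.09 (SE, edgeR adjusted p = 9.71e-05).

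Markers of some other cells also differed between these populations. The epithelial, myeloid, erythroid and endothelial markers overlapped in range, and the mesenchymal markers did not. The epithelial markers summed to 0.0794 to 0.239% of counts in lung ILC2 and to 0.0525 to 0.150% in CD4 T cells. The mesenchymal markers (all 5 found, among them miR-143-3p) summed to 0.435 to 1.10% of counts in lung ILC2 and to 0.000924 to 0.0122% in CD4 T cells, where miR-199a-5p and miR-214-3p were at 0. The endothelial markers miR-126a-3p and miR-126a-5p summed to 0.0256 to 2.16% in lung ILC2 and to 0 to 0.0317% in CD4 T cells. Their part in the result was not tested. In these bulk samples, fewer cells of a type and less RNA per cell cannot be told apart. The haematopoietic miR-142a arms, which mark blood cells, were present in all 6 populations, and microRNAs do not tell an ILC2 from a T cell by a single marker.

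After IL-33 in the lung, neither arm was shown to differ from untreated lung ILC2. The log2 change was 0.44 ± 1.01 for miR-150-5p (SE, edgeR adjusted p = 1) and 0.53 ± 1.31 for miR-150-3p (SE, edgeR adjusted p = 1). edgeR called 0% of 384 microRNAs here, with 22 at an unadjusted p below 0.05, 3 called by DESeq2, and 0.521% called with the block. Within tables miR-150-5p was higher after IL-33 in the second table and lower in the other 3. Without IL-33 ILC2 library 2 its change was −0.43, and by library totals with the block it was −0.34, so no direction was fixed. For miR-150-3p the change was −0.16 without lung ILC2 library 2 and −0.35 without IL-33 ILC2 library 4.

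In culture, ILC2 held less of both arms than lung ILC2, and the calls came with the block. The log2 change of miR-150-5p was −1.85 ± 1.04 (SE, edgeR adjusted p = 0.443) without the block and −2.09 ± 0.56 with it (SE, edgeR adjusted p = 0.0252). CPM was lower in cultured ILC2 in 4 of 4 tables, with differences in log2 CPM of −5.13 to −2.14. For miR-150-3p the change was −3.72 ± 1.47 (SE, edgeR adjusted p = 0.217) and with the block −3.79 ± 1.01 (SE, edgeR adjusted p = 0.0252), with differences in log2 CPM of −5.07 to −4.93 in 3 tables and 0 counts on both sides in the first. edgeR called 0.26% of all microRNAs here and 4.43% with the block. The mesenchymal markers summed to 0.00944 to 0.122% of counts in cultured ILC2, below all lung ILC2 libraries, and their part in the result was not tested. The blocked call of miR-150-5p was lost when library 1 or 2 of lung ILC2 or library 1, 2 or 4 of cultured ILC2 was left out, at −2.10 to −1.53. That of miR-150-3p was lost when library 2 or 4 of lung ILC2 or library 1, 2 or 4 of cultured ILC2 was left out, at −4.10 to −3.43.

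Set against IL-33 ILC2, cultured ILC2 were again lower with the block. The values were −2.29 ± 1.06 for miR-150-5p (SE, edgeR adjusted p = 0.275), with the block −2.45 ± 0.56 (SE, edgeR adjusted p = 0.0111). They were −4.25 ± 1.51 for miR-150-3p (SE, edgeR adjusted p = 0.17), with the block −4.71 ± 1.05 (SE, edgeR adjusted p = 0.0111). The groups of miR-150-3p did not overlap. edgeR called 0% of 384 microRNAs, with 59 at an unadjusted p below 0.05 and 5 called by DESeq2, and 4.17% with the block. The blocked call of miR-150-5p was lost when library 4 of IL-33 ILC2 or library 1, 2 or 4 of cultured ILC2 was left out, at −2.26 to −1.70, and that of miR-150-3p without cultured ILC2 library 2 or 4, at −4.24 and −4.62.

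Among T cells, the lung Th2 of challenged mice were not shown to differ from CD4 T cells in either arm. These populations differ in tissue, genotype and sort as well as in challenge, and these cannot be told apart. miR-150-5p was lower by −1.11 ± 1.12 (SE, edgeR adjusted p = 0.614) and miR-150-3p by −2.54 ± 1.54 (SE, edgeR adjusted p = 0.381), and the blocked values, −1.54 and −1.32, were not called either. CPM was lower in OVA-lung Th2 in 3 of 3 tables for both arms. edgeR called 0% of 384 microRNAs, with 66 at an unadjusted p below 0.05 and 28 called by DESeq2, and 5.73% with the block. With the block miR-150-5p was called without CD4 T cell library 1, at −2.26, or 4, at −2.15. The change of miR-150-3p moved with single libraries, to −0.40 with the block without OVA-lung Th2 library 3 and to −3.39 without library 1. miR-21a-5p, known to rise in activated T cells, took 31.3 to 52.8% of the counts of OVA-lung Th2 and 2.16 to 9.26% of those of CD4 T cells. As a share of the counts left without miR-21a-5p, miR-150-5p was 52931 ± 45996 CPM in OVA-lung Th2 (SD, n = 3) and 56428 ± 51307 CPM in CD4 T cells (SD, n = 4). These means are not matched by table, as OVA-lung Th2 have no library in the fourth. With totals without miR-21a-5p as the scaling, the log2 change of miR-150-5p was −0.09, and −0.51 with the block. Neither was called.

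Cultured Th2, in contrast, held far less miR-150-5p than CD4 T cells. They came from bead-taken CD4+ cells and not from the sorted CD4 T cells, which cannot be told apart from culture. The log2 change was −6.47 ± 1.28 (SE, edgeR adjusted p = 0.00184), CPM was lower in 4 of 4 tables with differences in log2 CPM of −8.21 to −5.69, and the groups did not overlap. The call was kept without any single library, at −7.01 to −5.54. miR-150-3p was lower by −5.20 ± 1.55, which missed the threshold (SE, edgeR adjusted p = 0.0864), and by −5.49 ± 1.05 with the block (SE, edgeR adjusted p = 0.000409). Its CPM was lower in 4 of 4 tables with differences in log2 CPM of −7.38 to −4.32 and no overlap, and its blocked call was kept without any single library, at −5.95 to −4.93. edgeR called 1.04% of all microRNAs, 4 of 384, and 13% with the block.

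Cultured Th2 also stood below the Th2 of the lung. These populations differ in tissue, genotype and isolation as well as in culture, and these cannot be told apart. miR-150-5p was lower by −5.35 ± 1.24 (SE, edgeR adjusted p = 0.0121) and lower in 3 of 3 tables, with no overlap. miR-150-3p was lower by −2.66 ± 1.44 (SE, edgeR adjusted p = 0.281), and by −4.17 ± 1.08 with the block (SE, edgeR adjusted p = 0.0232), again with no overlap. edgeR called 0.521% of all microRNAs and 1.82% with the block. The call of miR-150-5p was lost without OVA-lung Th2 library 3 or any single cultured Th2 library, at −5.65 to −4.53, and with the block was kept in all 7 such fits, at −4.97 to −3.51. The blocked call of miR-150-3p was lost without OVA-lung Th2 library 1, at −2.29, and without cultured Th2 library 1 or 2, at −3.35 and −3.33.

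**Figure D2:**
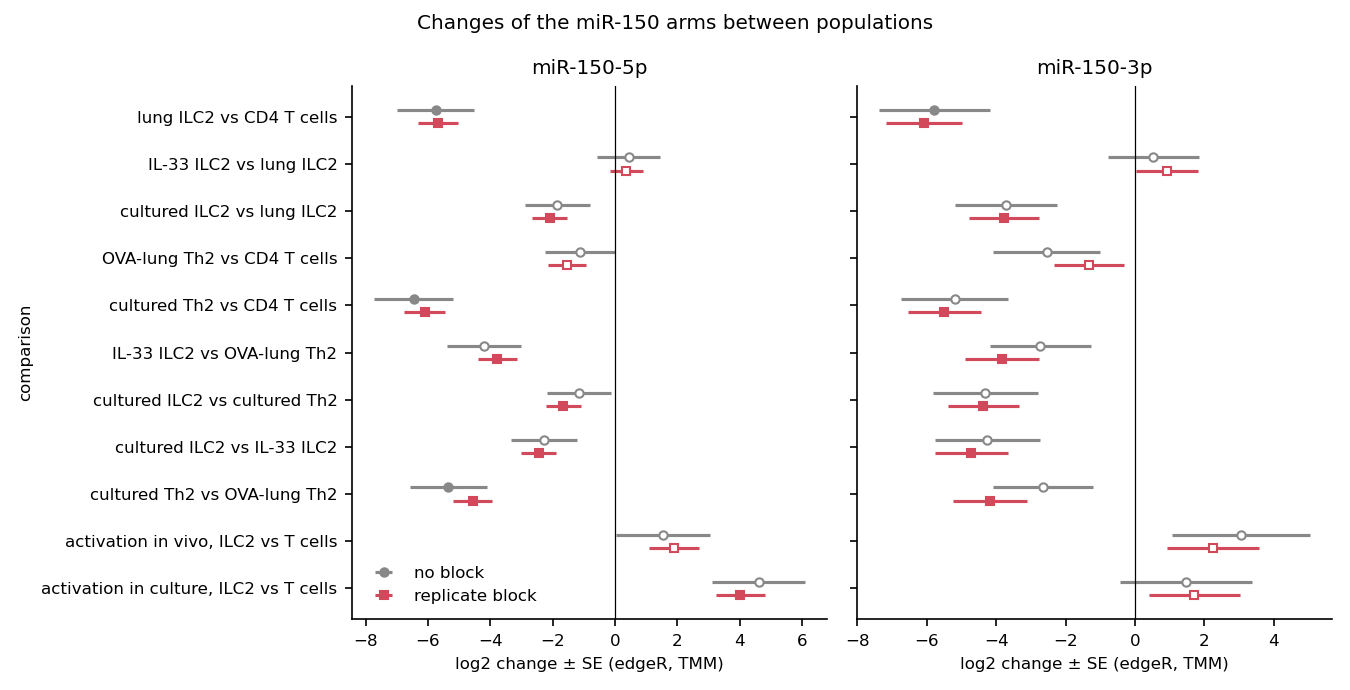
Log2 change of each arm (x axis, ± SE, edgeR with TMM scaling) for 9 pairs of populations, without a block (grey circles) and with the replicate block (red squares). The last rows are the differences between lineages in the gap between activated and untreated populations. Filled symbols have an adjusted p below 0.05. Both fits place lung ILC2 and cultured Th2 more than 5 log2 units below CD4 T cells for each arm. By library totals miR-150-5p in lung ILC2 was at −4.88 against CD4 T cells, and with the block at −4.72.

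The activated ILC2 and T cells were compared in the lung and in culture. In the lung, IL-33 ILC2 held less of both arms than OVA-lung Th2, called with the block. miR-150-5p was lower by −4.20 ± 1.18 (SE, edgeR adjusted p = 0.135), with the block by −3.78 ± 0.62 (SE, edgeR adjusted p = 9.94e-05), and in 3 of 3 tables. miR-150-3p was lower by −2.72 ± 1.44 (SE, edgeR adjusted p = 0.34), with the block by −3.83 ± 1.07 (SE, edgeR adjusted p = 0.0458), without overlap. edgeR called 0% of 384 microRNAs, with 62 at an unadjusted p below 0.05 and 19 called by DESeq2, and 3.39% with the block. The blocked call of miR-150-5p was kept without any single library, at −4.08 to −2.96. That of miR-150-3p was lost without IL-33 ILC2 library 1, 2 or 4, at −3.31, −3.77 and −3.16, and without OVA-lung Th2 library 1, at −1.89.

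In culture, ILC2 again held less of both arms than Th2, called with the block. Cultured ILC2 were below cultured Th2 in miR-150-5p by −1.14 ± 1.02 (SE, edgeR adjusted p = 0.748), with the block by −1.65 ± 0.55 (SE, edgeR adjusted p = 0.0376), and in 4 of 4 tables, by 1.07-fold to 7.78-fold in CPM, with overlap. That blocked call was lost by library totals (−1.05, edgeR adjusted p = 0.255) and by totals without miR-21a-5p (−1.45, edgeR adjusted p = 0.0656). In miR-150-3p they were below by −4.31 ± 1.51 (SE, edgeR adjusted p = 0.103), with the block by −4.36 ± 1.02 (SE, edgeR adjusted p = 0.00521), with no overlap. The ratio of the arms in this pair is given below, with tests that could not call a difference confined to a single pair. edgeR called 0.26% of all microRNAs and 12.5% with the block. The blocked call of miR-150-5p was kept only without cultured ILC2 library 3, at −2.03, or cultured Th2 library 2, at −2.13, and was lost without any other library, at −2.07 to −1.27. That of miR-150-3p was kept without any single library, at −4.72 to −4.

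The gap in miR-150-5p between the untreated and the cultured population was larger in T cells than in ILC2, called with the block. The difference was 4.61 ± 1.499 on the log2 scale without the block, not called (SE, edgeR adjusted p = 0.246). With the block it was 4.02 ± 0.79 (SE, edgeR adjusted p = 0.00105). In the tables, in their order, the difference in log2 CPM was 0.56, 3.72, 4.84 and 5.42, the same direction in all 4. The blocked call was kept in all 16 fits without a single library, at 3.66 to 4.56. With the block 0.781% of all microRNAs, 3 of 384, were called in this test, and without it 0%, with 21 at an unadjusted p below 0.05 and 6 called by DESeq2. For miR-150-3p the difference was 1.47 ± 1.90 (SE, edgeR adjusted p = 0.962) and with the block 1.70 ± 1.31 (SE, edgeR adjusted p = 0.573). The cultures differ in length and in stimulus. Cultured Th2 also came from bead-taken CD4+ cells and not from the sorted CD4 T cells, whereas the ILC2 groups share a sort. These differences and lineage cannot be told apart. For the populations activated in the lung, each set against its untreated population, the difference between the lineages was not called. It was 1.55 ± 1.51 for miR-150-5p (SE, edgeR adjusted p = 0.657) and 3.06 ± 1.99 for miR-150-3p (SE, edgeR adjusted p = 0.472). With the block it was 1.90 and 2.24, not called either. The T cell side of this comparison also differs in tissue, genotype and sort, which cannot be told apart from challenge. There edgeR called 0% of 384 microRNAs, with 64 at an unadjusted p below 0.05 and 11 called by DESeq2, and 3.65% with the block.

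The arms come from a single hairpin, and their ratio within a library does not depend on its scaling. miR-150-3p made up 28.4%, 3.69%, 1.95% and 31.7% of the counts of both arms in CD4 T cell libraries 1 to 4. In OVA-lung Th2 the share was 44.9%, 1.94% and 1.34%, and in lung ILC2 0%, 3.99%, 7.84% and 47.1%. Within each of these populations the share thus ran from a few percent or less to above 28%. IL-33 ILC2 had shares of 6.87%, 3.59%, 15.3% and 32.2%, cultured Th2 10.9%, 8.83%, 11.1% and 51.4%, and cultured ILC2 0%, 1.03%, 1.11% and 15.9%. The shares of 0 rest on 70 counts of both arms in lung ILC2 and 13 in cultured ILC2, with exact upper bounds of 5.13% and 24.7%.

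**Figure D3:**
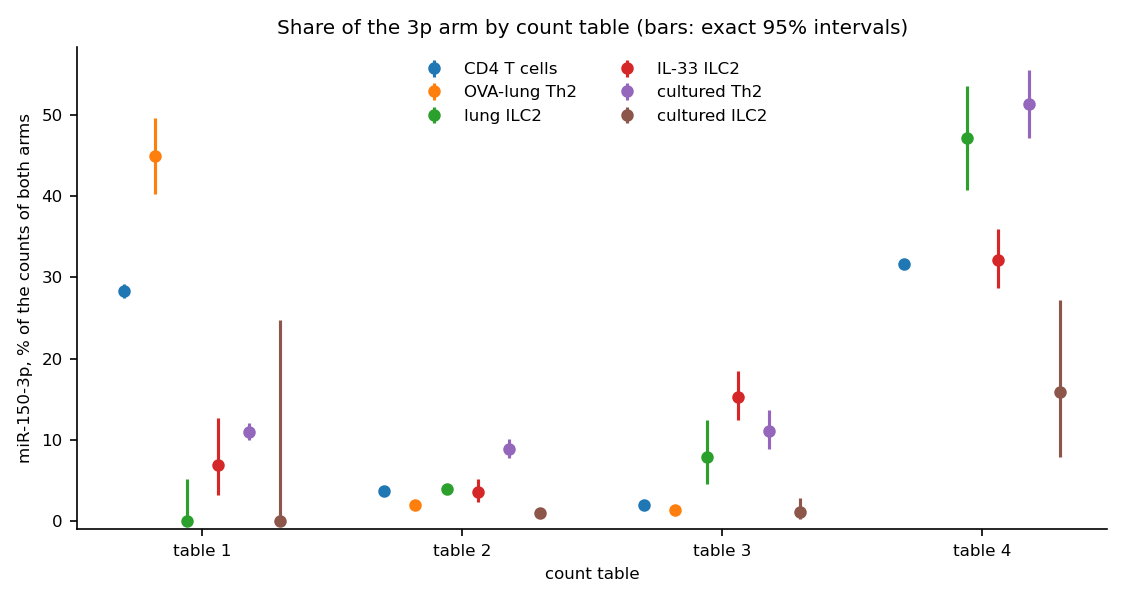
Share of miR-150-3p in the counts of both arms (y axis, percent) for each library, arranged by count table, with populations in colour and exact 95% binomial intervals as bars. The libraries of the fourth table sit between 15.9% and 51.4%, and those of the second between 1.03% and 8.83%.

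The share followed the count table more than the population. It was 15.9 to 51.4% in the 5 libraries of the fourth table, with a median of 32.2%, and 1.03 to 8.83% in the 6 of the second, with a median of 3.64%. The third table ran from 1.11 to 15.3% and the first from 0 to 44.9%. Of the spread of the log2 ratio of the arms, 48.8% lay between tables and 16.2% between populations. Over the 105 hairpins with both arms tested, the medians were 35.5% and 18.2%, and 77 had more spread between tables than between populations. The log2 ratio was tested in 9 pairs of populations by the exact two-sided permutation test. None was shown to differ, with a Benjamini-Hochberg adjusted p of 0.714 in each. After adjustment over the 9 pairs this test cannot call a difference confined to a single pair, so nothing is concluded from it. The smallest unadjusted p was 0.114, for cultured ILC2 against cultured Th2, where 0.0286 is the smallest the test can give with 4 libraries on each side. There the log2 ratio of 5p to 3p was 4.99 ± 1.93 in cultured ILC2 and 2.32 ± 1.61 in cultured Th2 (SD, n = 4 each), higher in cultured ILC2 in 4 of 4 tables. It was also higher in 4 of 4 tables than in IL-33 ILC2, at 2.99 ± 1.58 (SD, n = 4). The exact sign-flip test of the within-table differences, which takes the pairing by table into account, gave p = 0.125 for both pairs, the smallest it can give with 4 tables.

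Over the 23 libraries the log2 levels of the arms had a Pearson r of 0.78, and of 0.87 after subtraction of the table means. These and the following correlations are descriptions over libraries that share populations, tables and scaling. Among 124 tested microRNAs of at least moderate abundance (mean log2 CPM of 6 or more), the table-centred levels most like those of miR-150-5p were those of miR-181a-5p (r = 0.94), a microRNA known to tune T cell receptor signalling. miR-150-3p came next (0.87), then miR-26a-5p (0.74), miR-181b-5p (0.72) and miR-142a-5p (0.67), against a median of −0.02 over the 124. miR-181a-5p took 2.07 ± 1.10% of the counts in CD4 T cells, 0.752 ± 0.644% in OVA-lung Th2, 0.287 ± 0.190% for lung ILC2 and 0.0572 ± 0.0441% in cultured ILC2 (SD, n = 3 or 4). In IL-33 ILC2 it took 0.173 ± 0.154% (SD, n = 4), a mean below that of lung ILC2. For miR-150-5p these groups had no fixed order. Its mean was higher in IL-33 ILC2 than in lung ILC2, but its median was lower, at 673.8 against 1352 CPM.

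The most opposed levels were those of miR-23a-3p (r = −0.80) and miR-24-3p (−0.71), which are processed from a shared precursor transcript, and of miR-146b-5p (−0.69), known as a brake on innate signalling. miR-501-3p (−0.66) and miR-532-5p (−0.65) followed. miR-146b-5p made up 1.20 ± 0.60% of a library in lung ILC2 and 0.0174 ± 0.0255% in CD4 T cells (SD, n = 4 each). miR-23a-3p took 1.78 ± 1.29% in lung ILC2 and 0.0543 ± 0.0526% in CD4 T cells (SD, n = 4 each). Of the untreated cells, lung ILC2 thus held more of both and less miR-150-5p, an opposition for which they were picked. In cultured Th2, where miR-150-5p was also low, miR-146b-5p took 0.0277 ± 0.0242% and miR-23a-3p 0.181 ± 0.197% (SD, n = 4).

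**Figure D4:**
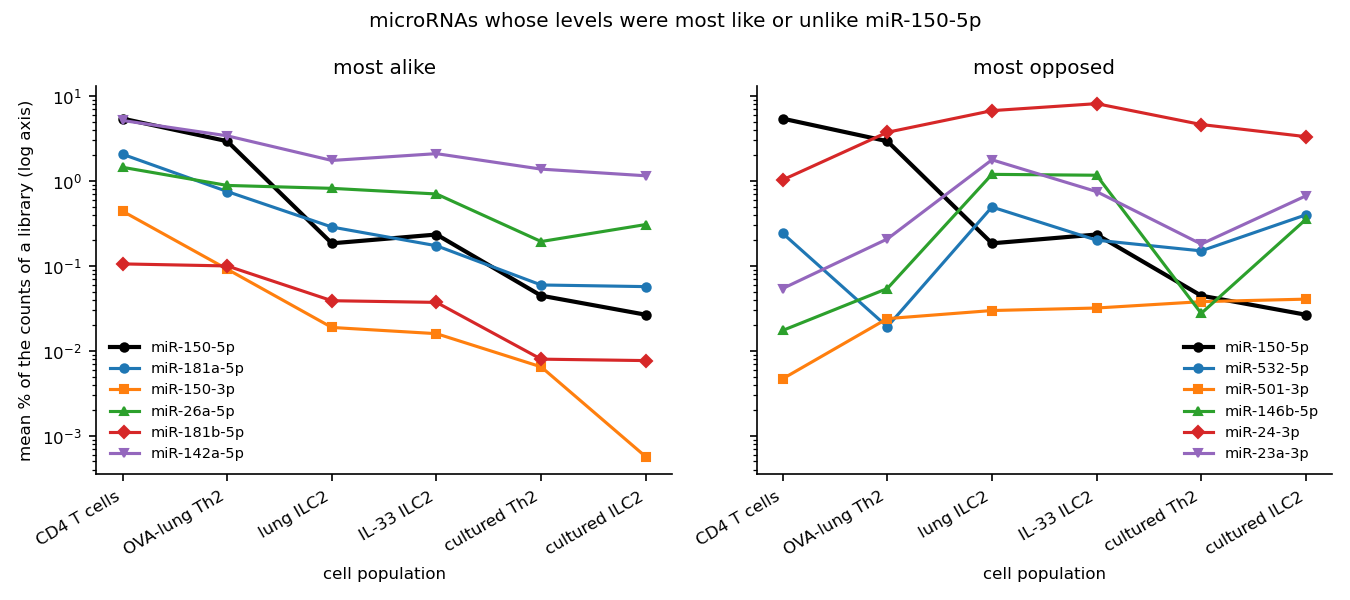
Mean share of library counts (y axis, percent, log axis) of miR-150-5p in black with the 5 microRNAs whose table-centred levels were most like it (left) and the 5 most opposed (right), by population on the x axis. miR-181a-5p (r = 0.94) falls from 2.07% in CD4 T cells to 0.0572% in cultured ILC2, while miR-146b-5p (r = −0.69) peaks at 1.20% in lung ILC2.

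miR-150 belongs to a set of microRNAs known for their abundance in resting lymphocytes, listed here with 53 entries, of which 44 passed the filter on low counts. In lung ILC2 against CD4 T cells, edgeR called 0 of the 44 higher and 3 lower, which were both miR-150 arms and miR-181a-5p (−3.87 ± 1.08, SE, adjusted p = 0.0447), against 0.781% lower among all 384. By size factors or by library totals miR-150-5p was the 1 member called lower, against 1 of all 384 by each. With the block 9 were lower, against 8.85% among all. By those scalings with the block 6 and 4 were lower, against 20 and 10 of all 384. Among the members called with the block was miR-142a-5p (−2.69 ± 0.53, SE, edgeR adjusted p = 0.000444), which is made in blood cells. Without the block the median log2 change was −1.70 over the list and −0.88 over all tested microRNAs. With library totals as the scaling these were −0.67 and 0. In cultured Th2 against CD4 T cells 2 of the 44 were lower, miR-150-5p and miR-181a-5p (−4.41 ± 1.11, SE, edgeR adjusted p = 0.0248), against 0.521% among all. With the block 7 were lower, against 4.43% among all, including them miR-26a-5p (−2.34 ± 0.58, SE, edgeR adjusted p = 0.00605). miR-139-5p, another member, had −5.32 ± 2.01 (SE, edgeR adjusted p = 0.201) and was among those called with the block. Without the block the list median was −1.16 there, against 0.01 over all, and with it −1.06 against 0.36. In cultured against lung ILC2 none of the 44 was called without the block, and with it the 2 called, both lower, were the arms of miR-150, against 0.781% lower among all. With the block the list median was −0.16 and 0.78 over all. By size factors 3 were lower with the block, against 4 of all 384, the third being miR-342-3p, with medians of −0.61 and 0.35. By library totals 4 were lower with the block, against 10 of all 384, with miR-181a-5p added, and the medians were −1.31 and −0.14. miR-342-3p is named after its value was seen.

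MicroRNAs whose rise in activated T cells is well known formed the opposite list, of 36 entries with 29 tested. In cultured Th2 against CD4 T cells 2 were higher and 0 lower, against 0.521% higher among all. They were miR-21a-5p (4.72 ± 1.001, SE, edgeR adjusted p = 0.00362), at 50.0 ± 23.4% of the counts in cultured Th2 and 4.68 ± 3.26% in CD4 T cells (SD, n = 4 each), and miR-210-3p, known to be induced by low oxygen (5.93 ± 1.54, SE, edgeR adjusted p = 0.0293). With the block 7 were higher, against 8.59% among all, including miR-21a-3p, miR-182-5p (4.83 ± 0.95, SE, edgeR adjusted p = 0.000443) and miR-183-5p (5.62 ± 1.09, SE, edgeR adjusted p = 0.000443). The 1 that was lower, miR-146a-5p, is named after its value was seen. Without the block the list median was 2.60 against 0.01 over all tested microRNAs. In cultured against lung ILC2 miR-21a-5p was the 1 member called higher without the block, against 0.26% among all. By size factors or library totals none was, against 0 of all 384. With the block 4 were higher, against 3.65% among all. By those scalings with the block 2 were higher, miR-146a-5p and miR-21a-5p, against 7 and 5 of all 384. The 4 were miR-146a-5p, miR-155-5p and both arms of miR-21a, named after their values were seen.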

How the data were processed

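Expected counts per microRNA, which need not be whole, were deposited by the authors in 4 tables made with exceRpt, per the labels. The authors also deposited RPM values, which for both arms differed by at most 8.11e-13% from the rounded count over the rounded total in 46 values, and by at most 3.65 CPM from the unrounded counts so scaled. The submitters' processing notes name mm10 and DESeq2. The aligner is not given in the sources used here. The 6 columns of the authors' averages were not used. A column spelled IL2_invitro_4 was taken as cultured ILC2 library 4.

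Rounded counts were fitted in R 4.3.3 by edgeR 4.0.16, with TMM scaling, filterByExpr by population, 1 fit of 6 populations, and robust quasi-likelihood tests. Within-table differences are log2 CPM with 0.5 counts added, over libraries with more than 3 counts. The ratio of the arms was taken with 0.5 counts added to each and tested by exact permutation with scipy 1.17.1. Alternatives were the block, other scalings, no filter, DESeq2 1.42.0, limma 3.58.1 and leaving out libraries.

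The labels put all libraries of a replicate number in 1 count table, which is the source of the pairing. Over 204 microRNAs, same-numbered libraries deviated together (r above 0.1) in 51 of 55 pairs, with a median r of 0.37 against −0.15 across numbers. The best partner had the same number for 22 of 23 libraries.

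The members, the lists and the tests were chosen with earlier results of these data known. Named microRNAs are both arms, any that share the seed shown above, and the 5 most alike and the 5 most opposed to miR-150-5p. Also named are the 4 of each list with the smallest p, miR-21a-5p and markers of other cells.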

Additional observations from a re-analysis of the deposited data

Results flagged for a closer look

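In IL-33 ILC2 the library of the second table, at 7794 CPM of miR-150-5p, stood far from the other 3, with a gap to its neighbour of 0.893 of the range of the group. The library of the second table was also the highest of lung ILC2, at 4248 CPM. In cultured Th2 the log2 ratio of miR-150-5p to miR-150-3p was −0.0817 in the library of the fourth table, against 2.99 to 3.36 in the other 3, with a gap of 0.890 of the range. Of 15 sets of values of a population examined in this way 2 stood out, where chance alone marks about 1 in 20.

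The gap in miR-150-5p between the untreated and the cultured population differed between ILC2 and T cells by 4.02 on the log2 scale. This is from the test with the replicate block (edgeR adjusted p = 0.00105). The cultured Th2 did not come from the sorted CD4 T cells.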

How the results depend on the processing

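miR-150-3p had 0 counts in 2 libraries and fewer than 20 in 5 others, so that its changes against lung and cultured ILC2 rest on few counts. The 4 cultured ILC2 libraries are all among these, with totals of 711746 to 3326495. Libraries of a group also span a wide range, and few pairs are called without the block. Over all alternatives other than leaving out a library, 245 values kept their direction and their side of the threshold, 52 passed it anew, 7 lost it and 8 turned. The cause of these changes was not tested. Over all 384 microRNAs edgeR called 6 without the block and 48 with it in lung ILC2 against CD4 T cells. DESeq2 called 31 there, of the 263 to which it gave an adjusted p. In cultured Th2 against CD4 T cells edgeR called 4 and 50, and DESeq2 32 of 256. Among the comparisons reported, no call of the arms other than those listed below changed with the replicate block.

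The direction of IL-33 against lung ILC2 turned for miR-150-5p with limma (−0.45 and −0.46) and with the block by library totals (−0.34, and −0.11 without miR-21a-5p). It turned for miR-150-3p by library totals (−0.26), with DESeq2 (−0.52) and in a fit of these groups alone (−0.07). The log2 ratio of the arms in lung ILC2 against CD4 T cells turned to −0.44 with at least 10 counts of miR-150-3p in each library. Calls lost were that of miR-150-5p in cultured Th2 against OVA-lung Th2 with no filter (−5.11) and that of miR-150-3p in lung ILC2 against CD4 T cells by size factors (−5.04), by library totals (−4.54, and −4.52 without miR-21a-5p), with no filter (−5.18) and with limma (−5.85 and −6.11).

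With the replicate block, calls were gained for miR-150-5p as follows, given under TMM, size factors, library totals and totals without miR-21a-5p in turn. They were −2.09, −2.50, −3.23 and −2.64 in cultured against lung ILC2, −2.45, −2.63, −2.89 and −2.54 in cultured against IL-33 ILC2, and −3.78, −3.62, −3.52 and −4.19 in IL-33 ILC2 against OVA-lung Th2. They were 4.02, 3.54, 3.67 and 3.15 in the difference between the lineages in culture. In cultured ILC2 against cultured Th2 the gain was under TMM and size factors (−1.65 and −1.61). With the arms summed, an alternative chosen after seeing the data, the blocked values were −2.24, −2.67, −3.87, 3.76 and −1.95 in the same order.

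For miR-150-3p, in the same order of scalings, the gains with the block were −3.79, −4.26, −4.96 and −4.22 in cultured against lung ILC2, −4.71, −4.73, −4.97 and −4.61 in cultured against IL-33 ILC2, and −3.83, −3.60, −3.77 and −4.52 in IL-33 ILC2 against OVA-lung Th2. They were −4.36, −4.21, −3.76 and −4.17 in cultured ILC2 against cultured Th2, −5.49, −5.54, −6.20 and −5.15 in cultured Th2 against CD4 T cells, and −4.17, −4.11, −4.98 and −4.97 in cultured Th2 against OVA-lung Th2. Without the block, library totals gave a call in cultured Th2 against CD4 T cells (−6.09), and DESeq2 gave calls there (−4.93), in cultured against lung ILC2 (−4.48) and in the cultured pair (−4.47). DESeq2 also called miR-150-5p in IL-33 ILC2 against OVA-lung Th2 (−4.40).

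Leaving out each library, with and without the block, miR-150-5p ranged from −0.43 to 1.17 in IL-33 against lung ILC2, −2.56 to −0.88 in cultured against lung ILC2, −2.29 to −0.67 in OVA-lung Th2 against CD4 T cells and −5.06 to −2.96 in IL-33 ILC2 against OVA-lung Th2. It ranged from −2.13 to −0.80 in the cultured pair, −3.04 to −1.36 in cultured against IL-33 ILC2 and −5.94 to −3.51 in cultured Th2 against OVA-lung Th2. Its difference between the lineages ranged from 3.66 to 5.77 in culture and 0.61 to 3.1 for the populations activated in the lung. miR-150-3p ranged from −6.63 to −4.84 in lung ILC2 against CD4 T cells, −0.35 to 1.43 in IL-33 against lung ILC2, −5.15 to −2.89 in cultured against lung ILC2 and −6.31 to −4.55 in cultured Th2 against CD4 T cells. It ranged from −4.74 to −1.69 in IL-33 ILC2 against OVA-lung Th2, −5.45 to −3.16 in the cultured pair, −5.15 to −3.32 in cultured against IL-33 ILC2, −5.16 to −1.57 in cultured Th2 against OVA-lung Th2 and −0.02 to 2.59 in the difference in culture. It ranged from −3.5 to −0.40 in OVA-lung Th2 against CD4 T cells and from 0.76 to 3.98 in the difference for the populations activated in the lung. The log2 ratio of the arms ranged from −0.44 to 1.88 in lung ILC2 against CD4 T cells, −2.09 to 0.23 in IL-33 against lung ILC2, −0.09 to 2.23 in cultured against lung ILC2, −0.22 to 2.72 in OVA-lung Th2 against CD4 T cells and −2.94 to 0.01 in IL-33 ILC2 against OVA-lung Th2.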
